A study of Mus musculus with 15 samples.

Results

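The 8 genes followed here mark Schwann cells, myelin or injured nerve and were measured in the gastrocnemius muscles of 15 aged female C57BL/6JN mice. They are Ngfr, Mbp, Pmp22, Prx, S100b, Sox10, Gfap and Cdh19. They were taken from a fixed list of symbols, matched to the Ensembl gene identifiers of the deposited count table, where all 8 were found among 55450 genes. They were chosen with results from these same mice already known, so their differences between groups are given as descriptions. RNA with poly(A) tails was sequenced from powdered gastrocnemius, a calf muscle, of 4 Low Control and 4 Low Run mice and of 3 High Control and 4 High Run mice, each library from a different animal. Low (labelled robust) and High (labelled frail) mice differed in how many frailty markers they carried, and all were older than 17 months. Run mice ran downhill on a treadmill in 2 bouts, at up to 13 m/min on a 22 degree decline, and their muscles were collected 24 h later, whereas Control mice stayed in their cages. High and Low were cohort-defined classes within 1 strain and sex. The whole muscle was ground, so a Schwann cell gene could change because cells were fewer or because each held less RNA, and these cannot be told apart.

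Schwann cells wrap the axons that run through muscle. Myelinating Schwann cells build the sheath from proteins such as myelin basic protein (Mbp), peripheral myelin protein 22 (Pmp22) and periaxin (Prx), under the transcription factor Sox10, while S100b and cadherin 19 (Cdh19) mark the lineage more broadly. After an axon is cut or crushed, Schwann cells lower their myelin genes and raise the neurotrophin receptor p75 (Ngfr) and the intermediate filament Gfap. Non-myelinating and terminal Schwann cells at the neuromuscular junction also carry S100b, and Ngfr is not restricted to glia.

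RefSeq promoter windows on GRCm38.p6 were matched for 5 of the 8 genes, and windows of 4 genes are shown. Prx and S100b each went with Pmp22 between mice, though their own correlation did not pass the test given below (r = 0.557, permutation adjusted p = 0.0798). Ngfr did not follow these genes. Each window holds the 250 bases before the annotated start, and capitals mark GGGCGG or its reverse complement, the GC box. Pmp22 has 4 windows, and the most upstream one is printed. The Prx window is chr7:27499074-27499323 on the plus strand, the Pmp22 window chr11:63128732-63128981 on the plus strand, the S100b window chr10:76253586-76253835 on the plus strand and the Ngfr window chr11:95587699-95587948 on the minus strand.
Prx: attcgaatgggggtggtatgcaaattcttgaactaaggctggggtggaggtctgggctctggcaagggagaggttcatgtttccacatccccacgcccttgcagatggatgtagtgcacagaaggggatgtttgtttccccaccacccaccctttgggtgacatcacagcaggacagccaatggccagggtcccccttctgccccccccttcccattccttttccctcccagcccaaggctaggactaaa
Pmp22: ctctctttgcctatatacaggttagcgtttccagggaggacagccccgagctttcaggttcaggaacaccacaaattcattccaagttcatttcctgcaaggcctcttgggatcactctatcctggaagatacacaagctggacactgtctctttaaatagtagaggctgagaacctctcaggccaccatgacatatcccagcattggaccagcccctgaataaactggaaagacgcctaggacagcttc
S100b: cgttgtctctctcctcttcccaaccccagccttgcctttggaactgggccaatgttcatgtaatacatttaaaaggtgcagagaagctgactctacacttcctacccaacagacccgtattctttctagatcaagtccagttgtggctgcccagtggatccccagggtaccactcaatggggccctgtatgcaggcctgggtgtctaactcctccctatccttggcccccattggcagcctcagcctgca
Ngfr: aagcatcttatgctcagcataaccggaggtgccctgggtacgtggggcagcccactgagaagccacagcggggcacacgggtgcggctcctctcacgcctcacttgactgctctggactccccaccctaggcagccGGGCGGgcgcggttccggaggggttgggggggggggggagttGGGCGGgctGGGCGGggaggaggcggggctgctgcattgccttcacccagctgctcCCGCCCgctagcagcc

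The Ngfr window held 4 GC boxes, with first bases 114, 72, 63 and 16 bases before the start, and no match overlapped another. The windows of Prx, S100b and Gfap and windows 1 and 3 of Pmp22 held none, while Pmp22 windows 2 and 4 held 3 each, 2 of which shared bases in each window. Of all 32851 windows of this length, 32.7% held a GC box on either strand. The GC content was 70.4% in the Ngfr window, 56.4% in that of Prx, 53.6% in that of S100b and 48.8% in window 1 of Pmp22, beside a median of 52.4% over all windows. Windows 2, 3 and 4 of Pmp22 held 61.2%, 64.8% and 73.6%, so window 4 was richer in GC than that of Ngfr. ACAAAG and ACAATG, cores that SOX factors bind, were in 16.5% and 10.7% of all windows, GTGGGCG of EGR factors in 7.02%, TATAAA in 12.4% and CACCTG, an E box, in 17.2%. GTGGGCG shares the letters GGGCG with the GC box. None of these letters occurred on either strand of the 8 windows of the 5 genes, which says only that they were absent from these bases.

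Levels are given in CPM, the count of a gene scaled to a library of 1000000 counts after TMM normalization, which evens out differences in composition between libraries. Total counts were between 19395125 and 30699216 per mouse, with a median of 25926420. Low Control mouse D9 was the highest of all mice for 22.7% of the 16920 genes that passed the low-count filter, High Run mouse D62 for 10.8% and High Run mouse D53 for 10.2%, and no other mouse for more than 7.8%. Of the 8 members, 7 passed that filter. Gfap did not, so it is absent from the edgeR results below, apart from the genes counted with no low-count filter.

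To compare levels between genes, CPM was divided by the exon length of each gene, in CPM per kb. Pmp22 had the highest level, with a mean of 23.3 CPM per kb over the 15 mice (range 15.4 to 38.7), and its lowest mouse was above the highest mouse of every other member. Mbp followed at 6.31 (2.49 to 14.2), Prx at 3.73 (1.37 to 8.59) and S100b at 2.49 (0.921 to 4.00), each overlapping its neighbour. Sox10 at 1.13, Cdh19 at 0.898 and Ngfr at 0.819 CPM per kb formed a low group whose ranges lay across each other. Gfap was last at 0.0134 CPM per kb. The members also differed in how variable they were: the highest mouse was 7.48 times the lowest for Ngfr, 6.28 times for Prx and 5.71 times for Mbp, against 2.52 times for Pmp22 and 2.37 times for Cdh19. S100b and Sox10 lay between, at 4.35 and 3.12 times.

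**Figure D1:**
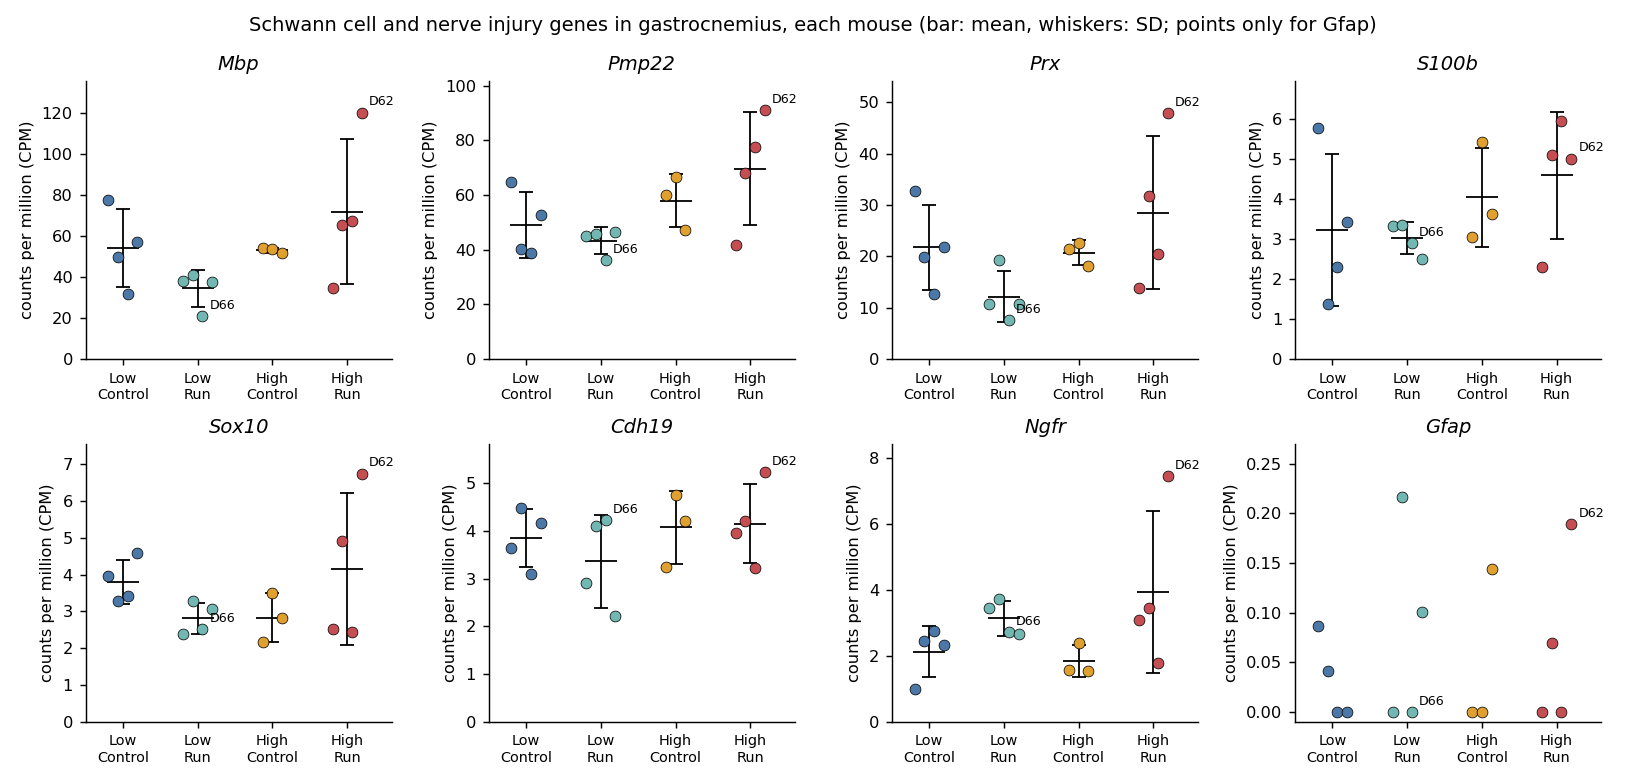
CPM of the 8 genes (y axis, linear) in each mouse (points) by group (x axis), with the mean and SD of the group for all genes but Gfap. Mouse D62 tops 6 of the 7 tested genes, D66 is the lowest mouse for Mbp, Pmp22 and Prx, and Gfap is at most 0.217 CPM.

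The myelin genes came first by abundance. Mbp (ENSMUSG00000041607, on chromosome 18) makes the protein that compacts the inner faces of the myelin membrane. It stood at 77.8, 49.8, 31.9 and 56.9 CPM in Low Control mice D8, D9, D11 and D98, and at 37.9, 41.2, 21.1 and 37.8 CPM in Low Run mice D57, D61, D66 and D68. Every Low Run mouse lay below Low Control mice D8, D9 and D98, and D66 was the lowest of all 15, yet the groups overlapped through Low Control mouse D11. In the High mice, Mbp was 54.2, 53.4 and 51.8 CPM in Control mice D23, D25 and D67, and 34.9, 65.2, 67.1 and 120 CPM in Run mice D49, D52, D53 and D62. The 3 High Control mice were close to each other, with an SD of 1.22 CPM, while the High Run mice lay on both sides of them, D49 below and the rest above.

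Pmp22 (ENSMUSG00000018217, chromosome 11, 63128982 to 63159547 on the plus strand of GRCm38) encodes a tetraspan protein of compact peripheral myelin. Its levels were 64.7, 40.3, 38.7 and 52.7 CPM in Low Control mice D8, D9, D11 and D98, and 45.0, 45.6, 36.2 and 46.6 CPM in Low Run mice D57, D61, D66 and D68. In High Control mice D23, D25 and D67 they were 60.1, 66.7 and 47.4 CPM, and in High Run mice D49, D52, D53 and D62 they were 41.9, 68.1, 77.7 and 91.2 CPM. The Low Run mice filled a narrow band inside the Low Control range apart from D66 just below it. Of the 4 High Run mice, 3 exceeded every High Control mouse, and D49 fell below all of them.

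Prx (ENSMUSG00000053198, chromosome 7, 27499324 to 27520214 on the plus strand) encodes periaxin, which links the outer Schwann cell membrane to the surrounding basal lamina. Prx was 32.7, 19.9, 12.7 and 21.8 CPM in Low Control mice D8, D9, D11 and D98, and 10.8, 19.2, 7.63 and 10.7 CPM in Low Run mice D57, D61, D66 and D68. Apart from D61, the Low Run mice were below every Low Control mouse. Prx was 21.4, 22.7 and 18.1 CPM in High Control mice D23, D25 and D67, and 13.9, 31.8, 20.5 and 47.9 CPM in High Run mice D49, D52, D53 and D62. Again D49 was lowest and D62 highest of the High mice, with the Control mice between them.

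Among the lineage genes, Sox10 (ENSMUSG00000033006, chromosome 15, 79154908 to 79165240 on the minus strand), the transcription factor that Schwann cells need at every stage, stood at 3.95, 3.27, 3.41 and 4.59 CPM in Low Control mice D8, D9, D11 and D98. It was 2.40, 3.28, 2.52 and 3.06 CPM in Low Run mice D57, D61, D66 and D68. The overlap between these groups was a single pair, since Low Run mouse D61 was just above Low Control mouse D9. Sox10 was 2.16, 3.51 and 2.83 CPM in High Control mice D23, D25 and D67, and 2.51, 4.90, 2.45 and 6.74 CPM in High Run mice D49, D52, D53 and D62. The High Run mice split, with D52 and D62 above the Control mice and D49 and D53 among them.

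S100b (ENSMUSG00000033208, chromosome 10, 76253853 to 76261159 on the plus strand), a calcium-binding protein of the Schwann cell cytoplasm, ranged from 1.37 to 5.77 CPM in Low Control and 2.51 to 3.35 CPM in Low Run mice, and from 3.05 to 5.43 CPM in High Control and 2.31 to 5.94 CPM in High Run mice. Its highest mouse was High Run D53, with D62 at 5.01 CPM, and its lowest was Low Control D9. Cdh19 (ENSMUSG00000047216, chromosome 1, 110888326 to 110977584 on the minus strand), a cadherin of the Schwann cell lineage, was the steadiest member. Its group ranges were 3.10 to 4.47 CPM in Low Control, 2.21 to 4.22 in Low Run, 3.24 to 4.76 in High Control and 3.22 to 5.23 CPM in High Run mice, all of which lay across each other.

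Ngfr (ENSMUSG00000000120, chromosome 11, 95568818 to 95587735 on the minus strand), the low-affinity neurotrophin receptor that Schwann cells raise after axon loss, was low and rested on 23 to 237 counts per mouse. It was 0.998, 2.44, 2.74 and 2.32 CPM in Low Control mice D8, D9, D11 and D98, and 3.45, 3.71, 2.73 and 2.66 CPM in Low Run mice D57, D61, D66 and D68. The 2 groups met at their edges only, where Low Control mouse D11 passed Low Run mice D66 and D68. Ngfr was 1.58, 2.40 and 1.53 CPM in High Control mice D23, D25 and D67, and 3.09, 3.44, 1.78 and 7.46 CPM in High Run mice D49, D52, D53 and D62. High Run mouse D53 fell inside the Control range, and the other 3 Run mice lay above it. Mouse D62 carried more than any other mouse, 7.46 CPM against 3.71 CPM in the next.

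Gfap (ENSMUSG00000020932, chromosome 11, 102887336 to 102900912 on the minus strand), an intermediate filament of astrocytes and of some Schwann cells, had 22 counts in all mice together. It was at 0 in 8 of the 15 mice, which at 3 counts allows a level of up to 0.101 to 0.138 CPM depending on the library, for counting error only. The highest counts were 6, in Low Run mouse D61 and High Run mouse D62. No difference between groups was detectable at this depth.

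The question the design puts to these genes is whether downhill running shifted them 24 h later, and whether it did so alike in Low and High mice. Differences were fitted with edgeR's quasi-likelihood test on the counts of all 16920 genes, as log2 fold changes with their standard errors (SE), and p was adjusted over all genes, with a false discovery rate (FDR) of 0.1 as the threshold. None of the 7 tested members passed in any of 6 comparisons, and neither did any other gene (0% of genes in each). At an unadjusted p under 0.05, edgeR gave 2274 genes in Low Run against Low Control, 877 in High Run against High Control, 1342 in the interaction, 992 in High Control against Low Control, 424 in High Run against Low Run and 1461 in Run against Control averaged over frailty. DESeq2 called 10, 15, 0, 0, 0 and 106 genes in these comparisons, no member among them. The members were selected with these contrasts in view, so the values below describe them and no count of members is read against the whole.

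In Low mice, 6 of the 7 members were lower after running, with a median log2 fold change of -0.19 against 0.016 over all genes. Prx was lowest, at -0.85 ± 0.36 (SE, edgeR adjusted p = 0.359), from 21.8 ± 8.25 CPM (SD, n = 4) in Low Control to 12.1 ± 4.97 CPM (n = 4) in Low Run mice. It was the only member with an unadjusted p under 0.05, 1 of 7, where 13.4% of all genes had one. That share rested in part on Low Control mouse D9, without which 846 of 16832 genes had such a p. Mbp stood at -0.65 ± 0.32 (edgeR adjusted p = 0.379), Sox10 at -0.44 ± 0.30 and the other 3 between -0.19 and -0.09. Ngfr was the exception and was higher, at 0.56 ± 0.38 (edgeR adjusted p = 0.480), from 2.13 ± 0.772 to 3.14 ± 0.524 CPM. Low Control mouse D8 bore on these values, having the highest Mbp and Prx and the lowest Ngfr of its group. Without it Prx was at -0.58 ± 0.37, its unadjusted p no longer under 0.05, Mbp at -0.42 ± 0.33 and Ngfr at 0.33 ± 0.37. Pmp22 was then at -0.02 ± 0.22 and S100b turned to 0.35 ± 0.35, so that 5 of the 7 members were lower. No member separated the 2 groups without overlap, whereas 6.93% of all genes did.

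In High mice, all 7 members were higher after running, with a median of 0.44 against 0.047 over all genes, of which 57.2% were higher. Ngfr had the largest difference of the members, 1.10 ± 0.42 (edgeR adjusted p = 0.956), from 1.84 ± 0.487 CPM (SD, n = 3) in High Control to 3.94 ± 2.45 CPM (n = 4) in High Run mice. It alone had an unadjusted p under 0.05, where 5.18% of all genes did. Without mouse D62 the Ngfr difference was 0.58 ± 0.35, with an unadjusted p above 0.05. The myelin genes rested on the same mouse: Mbp moved from 0.44 ± 0.35 to 0.06 ± 0.31 without it, Prx from 0.46 ± 0.39 to 0.08 ± 0.36 and Sox10 from 0.55 ± 0.32 to 0.21 ± 0.29. Cdh19, near zero with all mice at 0.03 ± 0.25, was at -0.11 ± 0.26 without D62. The share of genes without overlap between these groups was 7.07%, and no member was among them.

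**Figure D2:**
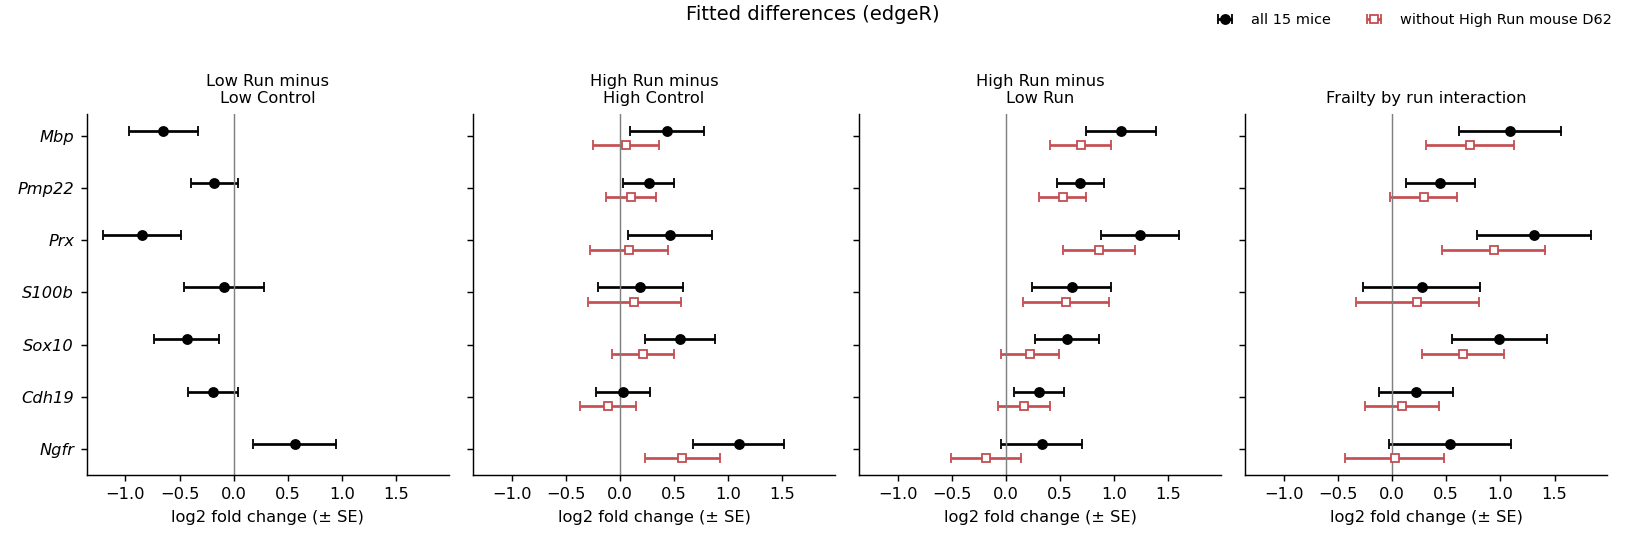
Log2 fold changes fitted by edgeR (x axis, points with SE) of the 7 tested genes (y axis) in 4 comparisons, for all 15 mice (filled) and without High Run mouse D62 (open squares). The myelin genes lie below 0 in Low mice and above 0 in High Run against Low Run, where Prx is at 1.24 and falls to 0.86 without D62, and Ngfr lies above 0 after running in both frailty classes.

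Of the 4 comparisons between a pair of groups, the myelin genes differed most between the groups that ran. High Run exceeded Low Run mice in Prx by 1.24 ± 0.36 (edgeR adjusted p = 0.999), in Mbp by 1.06 ± 0.32 (adjusted p = 0.999) and in Pmp22 by 0.69 ± 0.22 (adjusted p = 0.999). These 3 of 7 members had an unadjusted p under 0.05, as did 2.51% of all genes, and all 7 members were higher. Sox10 was at 0.56 ± 0.30, S100b at 0.60 ± 0.37, Cdh19 at 0.30 ± 0.23 and Ngfr at 0.33 ± 0.37. Without D62 the myelin genes were 0.86 ± 0.33 for Prx, 0.69 ± 0.28 for Mbp and 0.52 ± 0.22 for Pmp22, while Ngfr turned to -0.19 ± 0.32. High Run mouse D49, low in all 3 myelin genes, kept the groups overlapping, and 1.5% of all genes did not overlap.

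The interaction, the running difference in High mice minus that in Low mice, was 1.31 ± 0.53 for Prx, 1.09 ± 0.47 for Mbp and 0.99 ± 0.44 for Sox10 (edgeR adjusted p = 0.600 for each). These 3 of 7 members had an unadjusted p under 0.05, as did 7.93% of all genes. Leaving out D62 gave 0.94 ± 0.48, 0.72 ± 0.40 and 0.66 ± 0.38, none of them with an unadjusted p under 0.05. Leaving out Low Control mouse D8 gave 1.05 ± 0.52, 0.86 ± 0.47 and 0.97 ± 0.47, again with no such p. The Ngfr interaction was 0.54 ± 0.56, and 0.02 ± 0.46 without D62. The running differences of Ngfr in Low and High mice share a sign, and averaged over both classes Ngfr was higher by 0.83 ± 0.28 (edgeR adjusted p = 0.460). Without D62 that average was 0.57 ± 0.23 (edgeR adjusted p = 0.405). Ngfr was the only member with an unadjusted p under 0.05 in that average, beside 8.63% of all genes, and the other 6 lay between -0.19 and 0.06.

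Between High Control and Low Control mice, which did not run, the 7 differences lay between -0.43 for Sox10 and 0.33 for S100b in log2 fold change, with SE from 0.23 to 0.42. None had an unadjusted p under 0.05, as 5.86% of all genes did, and no member separated the groups, as 10.4% of all genes did. Mbp, at 54.1 ± 18.97 CPM (SD, n = 4) in Low Control and 53.1 ± 1.22 CPM (n = 3) in High Control mice, differed in spread more than in mean, with edgeR's log2 fold change at -0.03 ± 0.34.

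Mouse D62 needs stating beside these values. It was the highest mouse for 6 of the 7 tested members, namely Ngfr, Mbp, Pmp22, Prx, Sox10 and Cdh19. Its summed level of the 18 myelin genes was 588 CPM against 426 CPM in the next mouse, and that of 16 Schwann cell identity genes was 90.8 against 72.6 CPM. It was also highest in the sum of 5 satellite cell genes (82.8 against 53.2 CPM), and lowest of the 15 mice in the sums of 6 skeletal muscle fibre genes (83100 CPM) and 5 fibroblast genes (554 CPM). Such sums follow their most abundant genes. Cdh15 alone was at 71.7 CPM in D62, while Pax7, Myf5, Calcr and Vcam1 were highest in other mice. Myh7, one of the fibre genes, was highest in D62, at 1650 against 1400 CPM in the next mouse. Among the fibroblast genes Dcn had the highest mean, at 609 CPM. When each member was divided by Sox10 or by Prx of the same mouse, D62 was the highest mouse for none of the other 6. D62 was itself highest in both divisors, at 6.74 against 4.9 CPM in the next mouse for Sox10 and 47.9 against 32.7 CPM for Prx. Division by them lowers D62 most, so its loss of first place says little about the other members. What part the make-up of this sample had in the High Run values was not tested.

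Across the 15 mice, the myelin genes varied together. Pearson's r of log2 CPM between Mbp and Prx was 0.945, between Mbp and Pmp22 0.891 and between Pmp22 and Prx 0.825, with Spearman's rho at 0.914, 0.911 and 0.818. Each was past the permutation test over 21 pairs of members (100000 permutations, two-sided, adjusted p = 0.000105, 0.000105 and 0.00119). For the first 2, the p before adjustment was the smallest that these permutations can give. S100b went with Pmp22 (r = 0.808, rho = 0.846, permutation adjusted p = 0.00131), and Sox10 with Prx (r = 0.716, rho = 0.625, adjusted p = 0.0112) and Mbp (r = 0.640, rho = 0.446, adjusted p = 0.0360). Cdh19 had no pair past the test, its highest r being 0.526 with Prx. Points that share a library also share its depth and composition, and the 16919 other genes give a scale: ranked by r with Mbp, Prx was in place 1, Pmp22 in place 10, Sox10 in place 249 and S100b in place 387.

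**Figure D3:**
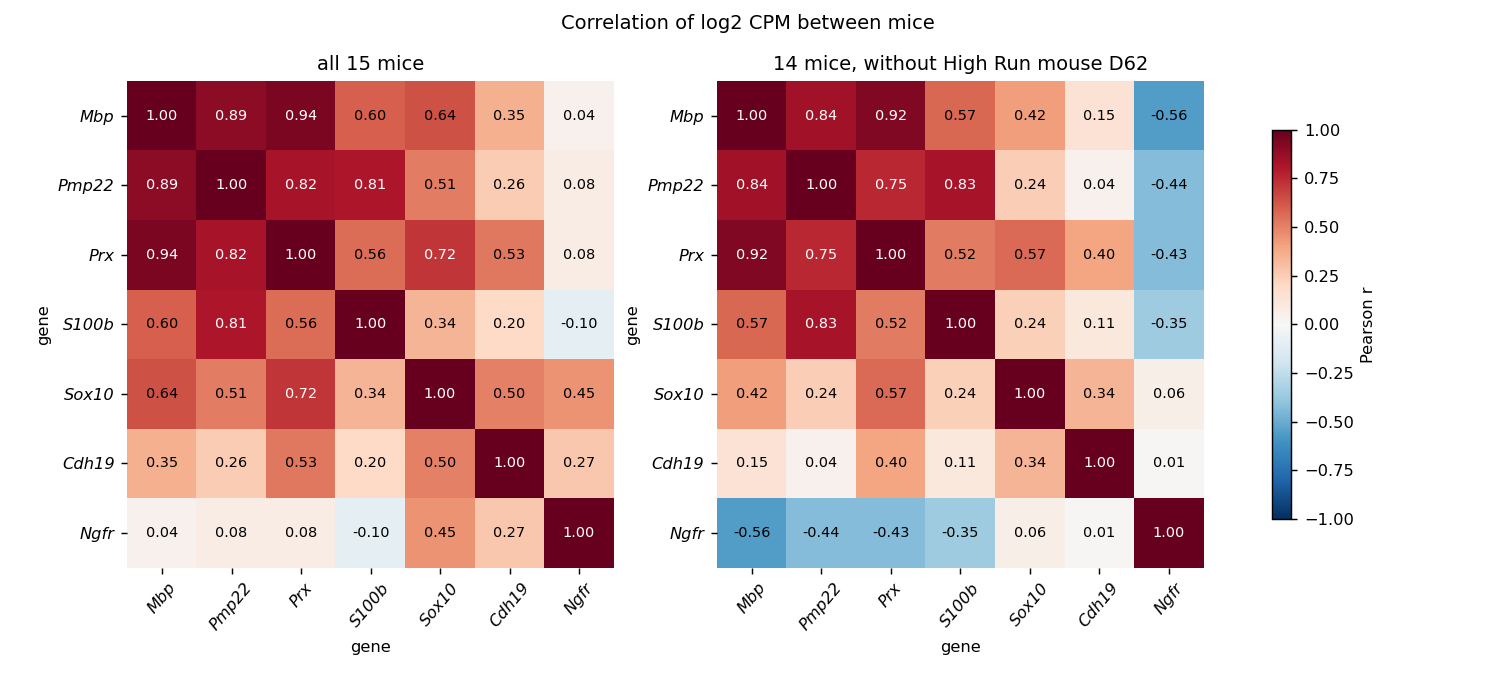
Pearson's r (colour and number) of log2 CPM between each pair of the 7 tested genes, over all 15 mice (left) and over 14 mice without High Run mouse D62 (right). Mbp, Pmp22 and Prx form a block at 0.825 to 0.945, and with all mice the Ngfr row lies between -0.095 with S100b and 0.450 with Sox10, while without D62 it reaches -0.556 with Mbp.

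These pairs were computed again without the 2 mice farthest from the median of the first gene. The 3 myelin pairs were then at 0.883, 0.830 and 0.812 over 13 mice and Pmp22 with S100b at 0.789. The Sox10 pairs did not hold: r fell to 0.538 with Prx (permutation p = 0.0587) and 0.351 with Mbp (p = 0.236) without mice D66 and D62, so both rested on these mice. With group means taken out and all mice kept, Sox10 had r = 0.738 with Prx (permutation adjusted p = 0.00743) and 0.623 with Mbp (adjusted p = 0.0466). On that scale Mbp and Prx had r = 0.911 (permutation adjusted p = 0.000420) and Mbp and Pmp22 r = 0.886 (adjusted p = 0.000420), so the myelin genes varied together within groups as well as between them. These permutations ran freely over all mice and did not allow for the group means taken out, which makes their p too small. The pair of Sox10 and Mbp, at 0.0466, cannot be taken as past the test on that scale. The groups of 3 and 4 mice are too small for an r of their own.

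Ngfr did not follow the myelin genes. Its r was 0.045 with Mbp, 0.077 with Pmp22, 0.076 with Prx and -0.095 with S100b (permutation adjusted p from 0.830 to 0.874), and 0.450 with Sox10 (permutation p = 0.0937, adjusted p = 0.164). Without D62 all 4 were negative, at -0.556, -0.436, -0.432 and -0.353 over 14 mice (permutation adjusted p from 0.122 to 0.352). Low Control mouse D8 had the lowest Ngfr, at 0.998 CPM, with Mbp and Prx below D62 alone, and D66 had the lowest Mbp with Ngfr at 2.73 CPM. Ranked by r with Ngfr, Mbp was in place 8199 of 16919 genes.

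**Figure D4:**
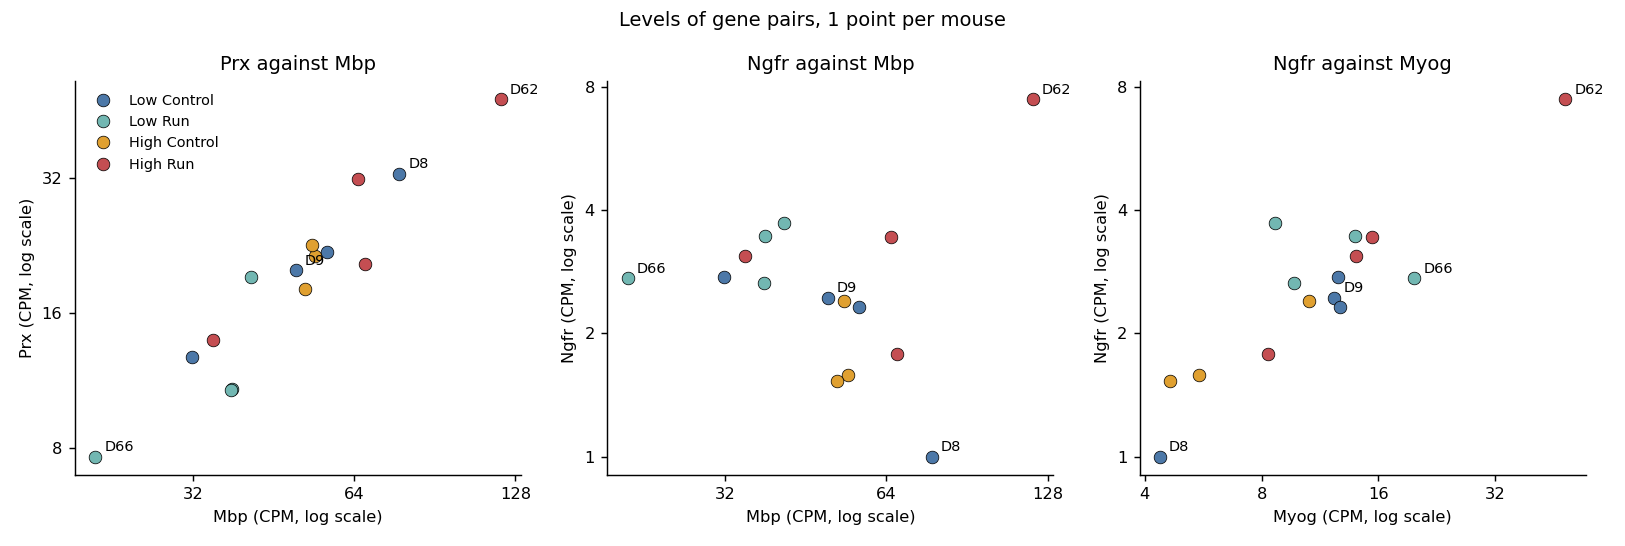
Levels of 3 pairs of genes in CPM, log axes, 1 point per mouse colored by group. Prx climbs with Mbp across the 15 mice (r = 0.945), Ngfr shows no such relation with Mbp (r = 0.045), and Ngfr climbs with Myog (r = 0.891, or 0.806 without D62).

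The genes most like Ngfr were sought among all tested genes outside the 8 members, by Pearson's r of log2 CPM over the 15 mice. They were Ect2l (0.912), Myog (0.891), CN725425 (0.866), Tbc1d31 (0.843), Fubp1 (0.837), Chrnb1 (0.830), Asic3 (0.828) and Wwp2 (0.809). Myog encodes the myogenic factor myogenin, Chrnb1 the beta subunit of the muscle acetylcholine receptor and Asic3 an acid-sensing ion channel. Over the 14 mice without D62 the r of these 8 genes lay between 0.700 and 0.842. Myog itself was 4.38 CPM in Low Control mouse D8, where Ngfr was lowest, 4.64 and 5.52 CPM in High Control mice D67 and D23, and 48.5 CPM in D62 against 19.8 CPM in the next mouse, D66. As the top of 16920 genes over 15 libraries, these r are a description with no test.

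For the other 6 tested members, the mean of their standardized log2 CPM gave a different neighbourhood. It was led by Mal (0.914), Cadm4 (0.912), Drp2 (0.911), Plekha4 (0.910), Gatm (0.908), Mapk8ip1 (0.897), Cldn19 (0.895) and Pllp (0.894), and without D62 these 8 were between 0.826 and 0.891. Mal and Pllp encode proteolipids of the myelin membrane, Drp2 the partner of periaxin in the dystroglycan complex, Cldn19 a tight junction claudin of Schwann cells and Cadm4 the adhesion molecule through which Schwann cells hold axons. Mal was lowest in Low Run mouse D66, at 2.00 CPM, and highest in D62, at 12.0 CPM, as were Mbp, Pmp22 and Prx.

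Ngfr was also set against Sox10 and Prx of the same mouse, a scale chosen after the values were seen and given with no test. Ngfr per Sox10 was 0.253, 0.747, 0.805 and 0.504 in Low Control mice D8, D9, D11 and D98, and 1.44, 1.13, 1.08 and 0.869 in Low Run mice D57, D61, D66 and D68. Every Low Run mouse was above every Low Control mouse on this scale. In CPM, 6.93% of all genes separated these 2 groups, and the share among ratios of genes was not computed. It was 0.732, 0.684 and 0.542 in High Control mice D23, D25 and D67, and 1.23, 0.702, 0.726 and 1.11 in High Run mice D49, D52, D53 and D62. Here D52 and D53 stayed inside the Control range, and D62 was below D49. Per Prx, Ngfr ranged from 0.0305 to 0.215 in Low Control, 0.193 to 0.358 in Low Run, 0.0739 to 0.106 in High Control and 0.0867 to 0.223 in High Run mice. On that scale Low Run overlapped Low Control, and High Run overlapped High Control. Every Low Run mouse was above every High Control mouse, but these groups differ in both frailty class and running, and no share of genes was computed for them.

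**Figure D5:**
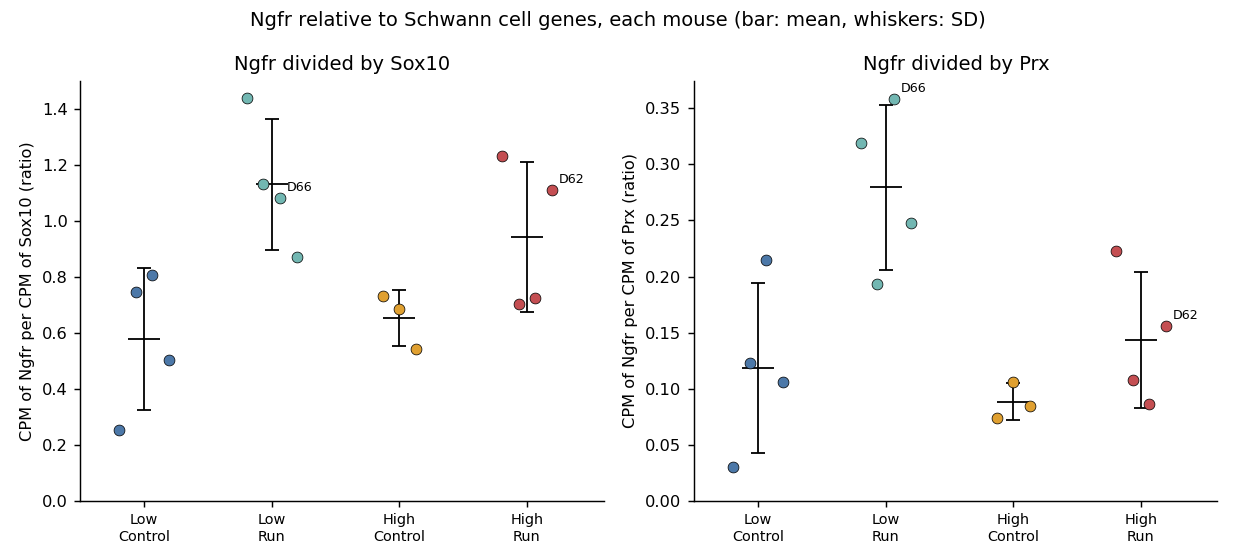
CPM of Ngfr divided by CPM of Sox10 (left) or Prx (right) in each mouse (points), with the group mean and SD. The 4 Low Run mice sit between 0.869 and 1.44 per Sox10, above the 4 Low Control mice at 0.253 to 0.805, while the High groups overlap.

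The members were read beside longer lists of the same and neighbouring cell types. These lists, too, were written with results of these mice known, and genes on 1 list can vary together over the mice. Counts of list genes are therefore descriptions, and the genes are not separate pieces of evidence. Of 18 genes of myelin proteins and lipids, all of which were tested, 17 were higher in High Run than Low Run mice and 11 of these had an unadjusted p under 0.05, with a median of 0.85 against 0.012 over all genes. Of all genes, 52.2% were higher in that comparison and 2.51% had such a p. Leaving aside Mbp, Pmp22 and Prx, 14 of 15 were higher and 8 had such a p, with a median of 0.83. Without D62, 17 of 18 were higher and 7 had such a p (median 0.52), and of the 15 outside the members 14 were higher and 4 had one (median 0.45), beside 1.82% of all genes. Of the rest, Mpp6, a scaffold protein expressed beyond Schwann cells, was at -0.09 ± 0.11 in this comparison. In Low Run against Low Control mice 3 of 18 were higher (median -0.38), or 4 of 18 (median -0.19) without Low Control mouse D8. In High Run against High Control mice 16 of 18 were higher (median 0.31), or 13 of 18 (median 0.07) without D62. With all mice, 51.9% and 57.2% of all genes were higher in these 2 comparisons. No gene of any list passed the FDR of 0.1.

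Of the 16 Schwann cell identity genes, 13 were higher in High Run than Low Run mice (median 0.39), 1 of them with an unadjusted p under 0.05, and without D62 14 were higher (median 0.19), none with such a p. The 3 members on that list, Sox10, S100b and Cdh19, had none. Scn7a, a sodium channel of non-myelinating Schwann cells and the most abundant on the list by CPM, was at 0.38 ± 0.20, and Matn2, a matrilin of the nerve matrix, at 0.40 ± 0.18. Of 8 tested myelin transcription factors, 5 were higher and none had such a p. Among these, Yy1 and Tead1, which are expressed in most cells, were the most abundant by CPM.

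Injury and repair genes lay on both sides of 0. In High Run against High Control mice, 9 of the 13 tested besides Ngfr were higher and 4 had an unadjusted p under 0.05 (median 0.41), where 57.2% of all genes were higher and 5.18% had such a p. These 4, all higher, were Gap43, a growth cone protein, at 2.03 ± 0.82, the growth factors Gdnf at 1.27 ± 0.49 and Bdnf at 0.77 ± 0.32, and the adhesion molecule Ncam1 at 0.55 ± 0.21 (edgeR adjusted p = 0.956 for each). Gap43 rested on 0 to 12 counts per mouse, and Ncam1 is also on the list of denervated muscle fibres. Without D62 Gdnf was at 0.97 ± 0.50 and Bdnf at 0.56 ± 0.32, no longer with such a p. Gap43, at 2.17 ± 0.87, and Ncam1, at 0.60 ± 0.22, kept one. In all, 3 of the 13 had one without D62, among them a gene outside these 4 that is not reported here by name. Jun, the transcription factor that sets the repair program, was at -0.23 ± 0.37 and Atf3, a stress-induced partner of it, at -0.86 ± 0.48 (edgeR adjusted p = 0.973 and 0.956). In Low Run against Low Control mice, 8 of the 13 were higher with a median of 0.06, and in High Run against Low Run mice 6 (median -0.04). Of 4 neurotrophin ligands, 1 was higher in High Run than High Control mice (median -0.33), and Ntf5 had the highest level of them, at a mean of 5.26 CPM. Of the 8 tested receptors and partners, 6 were higher in that comparison (median 0.13), with Sort1, the sortilin that pairs with Ngfr, at a mean of 92.6 CPM.

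Of 8 genes of perineurial cells and endoneurial fibroblasts, which form the sheath and matrix of the nerve, all were tested. After running, 1 was higher in Low mice (median -0.24) and 6 in High mice (median 0.26), and in the interaction 7 of 8 were higher (median 0.48), where 53.1% of all genes were. Itgb4, an integrin that perineurial cells share with Schwann cells, was at 0.96 ± 0.34 in the interaction (edgeR adjusted p = 0.600), the 1 gene of the list with an unadjusted p under 0.05. Of 8 motor axon genes, Prph, Stmn2 and Uchl1 were tested, and all 3 were higher after running in Low mice (median 0.34) and in High mice (median 0.32), none with such a p. The other 5, Nefl, Nefm, Nefh, Chat and Snap25, had at most 8 counts in any mouse and were not tested. Motor neurons keep their cell bodies, and most of their RNA, in the spinal cord. Of 5 melanocyte genes, which would also carry Sox10, Tyr was at 0 in every mouse and Mlana and Pmel had at most 7 counts, while Dct and Mitf, which is also expressed outside melanocytes, passed the filter. Of 9 genes of denervated muscle fibres, 9 were higher in High Run than High Control mice and 5 had an unadjusted p under 0.05 (median 0.80), where 57.2% of all genes were higher and 5.18% had such a p. Without D62, 9 were again higher and 5 had such a p (median 0.81), beside 4.83% of all genes. In High Control against Low Control mice 0 of 9 were higher (median -0.67). In High Run against Low Run mice 5 of 9 were higher (median 0.05), or 3 of 9 (median -0.04) without D62. Chrna1, the alpha subunit of the acetylcholine receptor, was at 0.75 ± 0.31 in High Run against High Control mice (edgeR adjusted p = 0.956). Of 5 macrophage genes, 5 were higher in High Run than High Control mice (median 0.79), with D62 in place 13 of 15 in their sum. Without D62, 5 were again higher (median 0.91). The part of these fibre and macrophage levels in the Ngfr values was not tested.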

How the data were processed

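Poly(A) RNA of gastrocnemius was sequenced from 15 mice, and p-values measure the spread between these animals. The deposited raw counts per gene were made by the authors, who per the labels and methods aligned reads to mm10 with STAR 2.7.9a and counted unique pairs on the annotated strand with featureCounts of Subread (2.0.3 in the submitters' processing notes), leaving out mitochondrial genes. A deposited table of variance-stabilized values was not used. Members and lists were chosen with earlier results of these data known. Genes passing filterByExpr (16920 of 55450) were fitted with edgeR 4.0.16 (TMM, quasi-likelihood F-test, 1 mean per group, all mice), with p adjusted by Benjamini-Hochberg. DESeq2 1.42.0, RLE scaling, 2 other count filters, fits to 2 groups and leaving out each mouse were the alternatives. Between mice of a group, chi-square per degree of freedom was 15.7 to 191, so no library was a repeat of another. Correlations used log2 CPM with a prior count of 2, and permutation in SciPy and numpy. Exon lengths and positions came from GENCODE M21 (GRCm38). Intervals and floors cover counting error only. The scripts were tested on simulated counts with 200 genes changed. Named genes were the 8 members, the 2 genes of each list with the highest mean CPM, the 8 genes most like Ngfr and the 8 most like the mean of the other 6 tested members. Some list genes count in their lists but are not reported here by name. Other list genes were named after their values were seen.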

Additional observations from a re-analysis of the deposited data

Results flagged for a closer look

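In 27 sets of 4 mice (7 members and 2 ratios of Ngfr, in 3 groups), 2 values stood apart from the other 3 by Dixon's criterion at the 95% level, which chance alone meets in about 1 of 20 groups. Low Run mouse D66 was at 21.1 CPM for Mbp, where the other mice of its group were at 37.8 to 41.2 CPM. The same mouse was at 36.2 CPM for Pmp22, with the others at 45.0 to 46.6 CPM. High Run mouse D62 did not meet the criterion for any member.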

How the results depend on the processing

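The count of genes called at an FDR of 0.1, 0 in each of the 6 comparisons with edgeR, was 86 (running in Low mice), 19 (running in High mice), 4 (interaction), 6 (High Run against Low Run) and 81 (Run averaged over frailty) with no low-count filter. With DESeq2 it was 10 and 15 for running in Low and in High mice and 106 for the Run average. Leaving out each mouse gave 0 in every comparison. None of the 7 tested members was called in any of 616 refitted fold changes (lowest adjusted p 0.171). Of these, 21 had another sign, none of them among the 140 that repeat a difference with an edgeR p under 0.05. Pairs of members past the correlation test numbered 6, and 4 without D62. Ngfr with Pmp22 turned to -0.0017 with group means taken out. Without the 2 mice farthest from the median, Ngfr had r = -0.399 with Mbp, -0.341 with Pmp22 and -0.217 with Prx. Without D62 these were -0.556, -0.436 and -0.432, the setting chosen after seeing the data. D62 was the highest mouse for 6 members in CPM and for 0 after division by Sox10 and 0 by Prx, also chosen after. Being highest in both divisors, D62 is lowered most by these divisions. No paired analysis was possible because the mice carry no shared replicate numbers. Counts of 23 to 237 limit Ngfr, and Gfap is too low to compare.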
